A study of Homo sapiens with 9 samples.

Results

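Toll-like receptor 4 (TLR4), the receptor for bacterial lipopolysaccharide, was followed together with 9 genes that deliver its ligand, share its signalling proteins or sense other microbial molecules. The 10 genes were LY96, CD14, TLR4, TLR2, TLR3, MYD88, TIRAP, TICAM1, IRAK1 and TRAF6, found by symbol among the 56505 symbols of the count tables. All 10 had enough counts to enter the test, as did 16921 genes in all, but TLR4 entered only through its counts in wild type. The set was chosen by the counts of TLR4, which were near 0 in both knockout clones, and filled with its known partners, so the levels of TLR4 are a description, with no test.

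RNA was sequenced from JAG1 knockout clone 1, JAG1 knockout clone 2 and wild-type MDA231-LN cells, with 3 libraries each. MDA231-LN (MDA-MB-231-D3H2LN) is a metastatic human mammary tumour line, and JAG1 encodes the Notch ligand Jagged1. The knockout was made with CRISPR/Cas9, and each knockout group is 1 clone, so a feature of that single line cannot be told apart from an effect of the knockout. Every group was kept in DMEM rich in glucose, with serum from fetal calves, and no label names a treatment with lipopolysaccharide. The labels do not say whether a group's libraries come from different cultures. The p-values therefore reflect the spread among the libraries at hand, and that spread may be technical.

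Lipopolysaccharide, a glycolipid of the outer membrane of Gram-negative bacteria, is handed by the binding protein LBP to CD14 and then to MD-2, the small secreted protein encoded by LY96 that sits on the outer part of TLR4. At the cell surface the receptor uses the adaptor TIRAP to bring in MyD88, which assembles IRAK kinases and the ubiquitin ligase TRAF6 and leads to NF-kappaB and MAP kinase activity. After uptake into endosomes the receptor uses the adaptors TRAM and TRIF (TICAM1), which lead to interferon genes as well. Monocytes and macrophages are the classical responders, and TLR4 transcripts are also known from carcinoma lines.

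Bases before the RefSeq starts of TLR4 and CD14 are shown because these are the 2 genes that were low in a clone against wild type. RefSeq (GRCh38.p14) gave 1 promoter window for 8 of the 10 genes. The RefSeq start of CD14 lies inside the deposited gene model, so the CD14 bases shown are part of the counted gene and not upstream of it. Capitals mark GAGGAA, the core bound by the myeloid factor PU.1, on either strand (TTCCTC is its other strand).
TLR4, chr9:117704153-117704331, plus strand: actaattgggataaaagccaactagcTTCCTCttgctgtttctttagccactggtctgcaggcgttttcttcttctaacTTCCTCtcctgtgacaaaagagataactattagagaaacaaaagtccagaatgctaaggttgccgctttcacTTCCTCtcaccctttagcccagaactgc
CD14, chr5:140633254-140633283, minus strand: ggggctggctcgGAGGAAgagaggtgggga
In the 250 bases before the RefSeq start TLR4 held 4 matches, of which 3 lie in the 179 bases printed, before the start of the deposited gene model. CD14 held 1 match, around which 30 bases are printed, and MYD88 held 1, so 3 of the 8 genes with a window had a match. Of 35116 promoters of that length 23.6% held one, and 18 promoters (0.0513%) held 4 or more. The cut of 4 equals the number found for TLR4, so this share is a description and no test. A match describes letters in these windows and is no evidence of binding.

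Total counts per library ran from 16890890 to 22456164. JAG1 transcripts, which checked the labels, averaged 94.5 ± 14.9 CPM in clone 1, 66.9 ± 9.87 CPM in clone 2 and 195.9 ± 44.7 CPM in wild type (CPM, counts scaled to library size with TMM factors; mean ± SD, n = 3 each). They were thus lower but present in both clones (log2 fold change −1.05, SE 0.18, edgeR adjusted p = 0.00312 in clone 1, and −1.55, SE 0.18, adjusted p = 0.000130 in clone 2). Mitochondrially encoded genes took 2.48% to 5.30% of counts in clone 1, 0.95% to 1.94% in clone 2 and 1.80% to 3.95% in wild type. Vimentin, CD44, EGFR and keratins 8 and 18, known from this line, were present in every library, though not at 1 level. KRT8 averaged 254.8 CPM in clone 1 and 413.5 CPM in wild type (edgeR adjusted p = 0.0209), and KRT18 averaged 137.3 CPM in clone 1 and 219.0 CPM in wild type (adjusted p = 0.0396). VIM averaged 1966 CPM in clone 2 and 1218 CPM in wild type (adjusted p = 0.0491). Between the clones VIM, KRT8 and KRT18 were higher and EPCAM lower in clone 2 (adjusted p = 0.000131 to 0.000452). The part of these shifts in the results on the lipopolysaccharide genes was not tested. The hormone receptors ESR1 and PGR and the epithelial cadherin CDH1 averaged under 1 CPM in every group. ERBB2 and EPCAM, listed here as low in this line, were detected at 90.5 and 17.9 CPM in wild type.

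TLR4 (GRCh38 chr9:117704332-117716871, plus strand, 4 exon blocks) was close to absent in both clones. Clone 1 had 3, 0 and 0 counts in replicates 1 to 3, clone 2 had 4, 0 and 3 counts, and wild type had 154, 191 and 129 counts. Every wild-type library lay far above all 6 knockout libraries. In bulk RNA fewer cells with the transcript and less of it per cell cannot be told apart. As a level, TLR4 averaged 0.0518 ± 0.0897 CPM in clone 1, 0.130 ± 0.124 CPM in clone 2 and 7.35 ± 0.806 CPM in wild type (SD, n = 3 each).

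Over summed counts, 3 in clone 1 against 474 in wild type, the level in wild type was 144 times that of clone 1 (95% exact counting interval 48.9 to 699). For clone 2, with 7 counts against the same 474, the ratio was 61.1 (29.4 to 153). These intervals cover counting error only. Among 11242 genes with a mean of at least 5 CPM in wild type, 15 averaged under 0.5 CPM in clone 1, 14 in clone 2 and 5 in both clones. TLR4 was one of the 5. The limits of 5 and 0.5 CPM were set after the values of TLR4 were known.

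**Figure D1:**
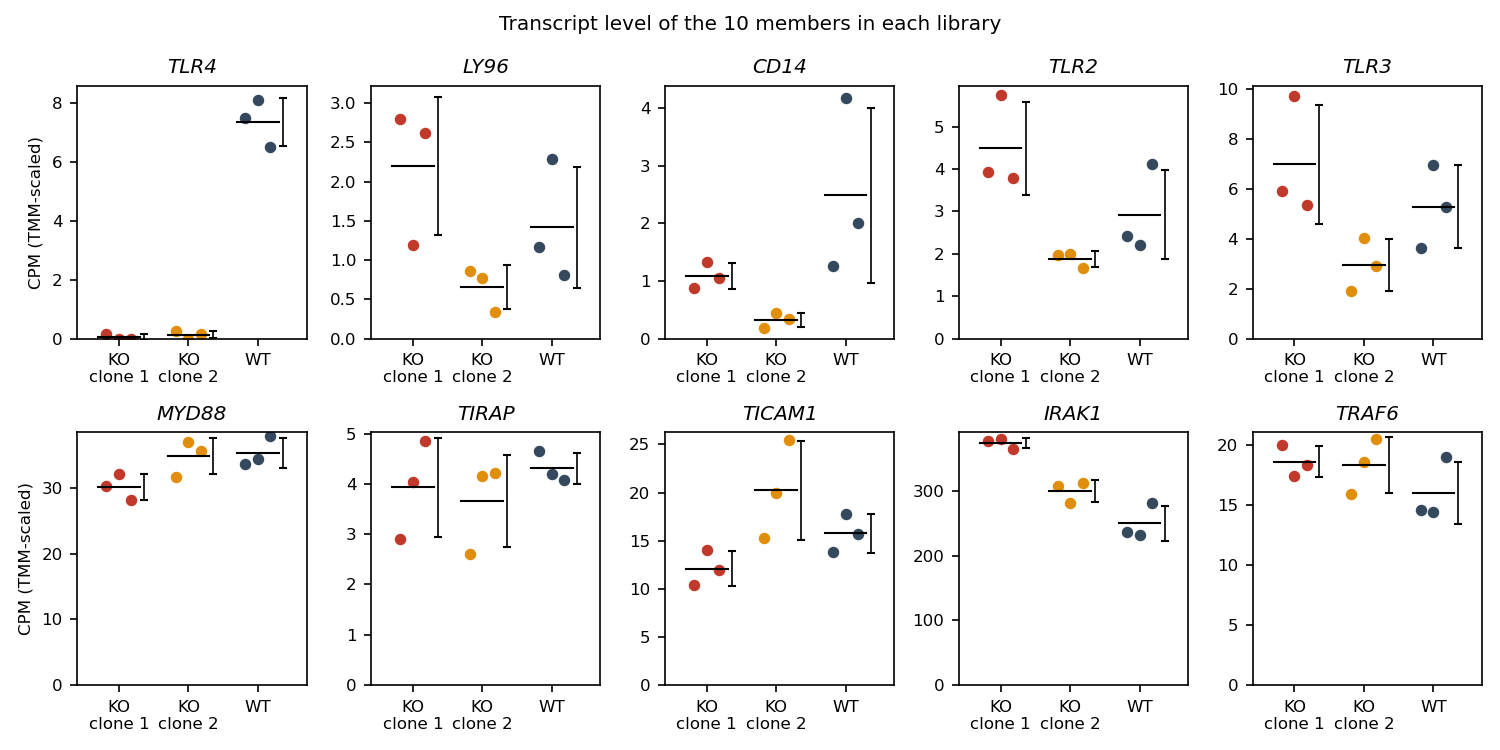
Transcript level of each of the 10 genes in every library, in CPM after TMM scaling (points; horizontal bar, mean; bracket, SD; n = 3 per group; each panel has its own axis from 0). TLR4 lies at 0 to 0.247 CPM in all 6 knockout libraries and at 6.49 to 8.08 CPM in wild type, while CD14, LY96, TLR2 and TLR3 are lowest on average in clone 2.

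Per kilobase of exon, transcripts of IRAK1, MYD88, TICAM1 and TRAF6, which encode shared signalling proteins, had the highest means in wild type. The receptor transcripts were lower, and the adaptor TIRAP lay among them, between CD14 and TLR3. IRAK1 led with 62.5 ± 6.77 RPKM in wild type, above 96.0% of tested genes, followed by MYD88 with 8.86 ± 0.574, TICAM1 with 5.89 ± 0.751 and TRAF6 with 3.29 ± 0.534 RPKM (SD, n = 3). The libraries of these 4 genes did not overlap with those of the next gene in the order, except for TRAF6 and LY96. LY96, at 2.34 ± 1.27 RPKM, overlapped with TRAF6 and with TLR4.

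The receptor TLR4 stood sixth in wild type with 1.40 ± 0.153 RPKM, above 32.6% of tested genes. It overlapped with CD14 (1.32 ± 0.806 RPKM), and CD14 overlapped with TIRAP (1.20 ± 0.0871 RPKM). TLR3 (0.788 ± 0.248 RPKM) and TLR2 (0.695 ± 0.250 RPKM) were the lowest and overlapped with each other. In both clones TLR4 was last in the order, with 0.00985 RPKM in clone 1 and 0.0247 RPKM in clone 2, and CD14 was the next to last. The level of TLR2 rests on a gene model that covers part of the gene, because it begins 17220 bases downstream of the RefSeq start.

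**Figure D2:**
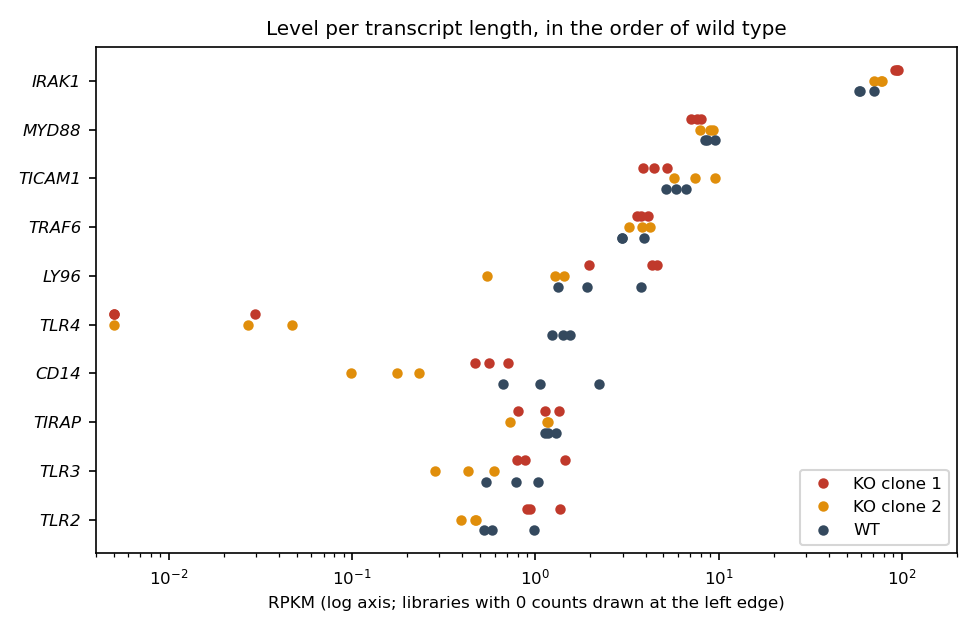
Level of the 10 genes scaled by exon length and depth (RPKM, log axis), with 1 point per library and libraries with 0 counts of TLR4 drawn at the left edge. Genes run down the page in the order of their wild-type mean, from IRAK1 at 62.5 RPKM to TLR2 at 0.695 RPKM.

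CD14, the glycolipid-anchored co-receptor that passes lipopolysaccharide on, was the gene beside TLR4 that was lower in clone 2 than in wild type by the test. CD14 (chr5:140631728-140633701, minus strand, 2 exon blocks) had 0.880, 1.33 and 1.06 CPM in clone 1, 0.186, 0.436 and 0.332 CPM in clone 2 and 1.26, 4.19 and 2.01 CPM in wild type. All clone 2 libraries lay below all wild-type libraries, whereas clone 1 and wild type overlapped.

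In clone 2 against wild type CD14 fell by 2.93 on the log2 scale (SE 0.58, edgeR adjusted p = 0.00938). The counts behind it were low, 3, 9 and 7 in clone 2 and 26, 99 and 40 in wild type. The call ended without wild-type replicate 2, the library with 99 counts (log2 −2.34, adjusted p = 0.0912; the range over 16 alternatives was 9.97e-05 to 0.0912). In clone 1 against wild type the log2 change of −1.19 (SE 0.51) did not pass the test (edgeR adjusted p = 0.184), and without wild-type replicate 2 it was −0.56 (adjusted p = 0.648; range over 16 alternatives 0.105 to 0.648).

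CD14 is also a marker of monocytes. Of 9 monocyte and macrophage markers that were summed beside it, 1 (CSF1R) had enough counts to be tested, and FCGR3A and TYROBP had no count in any library. The 9 together came to 5.46 to 9.22 CPM in clone 1, 2.7 to 6.87 CPM in clone 2 and 3.17 to 6.75 CPM in wild type, most of it CSF1R, and CSF1R did not pass the test in either clone. The leukocyte gene PTPRC had at most 9 counts in a library.

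LY96 (chr8:73991352-74029087, 5 exon blocks), which encodes MD-2, had 2.80, 1.19 and 2.62 CPM in clone 1, 0.866, 0.775 and 0.332 CPM in clone 2 and 1.17, 2.28 and 0.804 CPM in wild type. The wild-type libraries overlapped with both clones, and neither clone passed the test against wild type (log2 0.62, SE 0.52, edgeR adjusted p = 0.513 in clone 1, and −1.12, SE 0.56, adjusted p = 0.228 in clone 2). Between the clones the libraries did not overlap.

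TLR2, the receptor for bacterial lipoproteins that pairs with TLR1 or TLR6, lies on chromosome 4 (chr4:153701500-153705699, plus strand, 1 exon block). It had 3.94, 5.75 and 3.79 CPM in clone 1, 1.98, 1.99 and 1.66 CPM in clone 2 and 2.43, 2.20 and 4.12 CPM in wild type. Every clone 2 library was below every wild-type library, but the difference did not pass the test (log2 −0.63, SE 0.34, edgeR adjusted p = 0.273), nor did that of clone 1 (0.63, SE 0.33, adjusted p = 0.285).

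TLR3, the endosomal receptor for double-stranded RNA that signals through TRIF, lies farther along the same arm (chr4:186069152-186088069, plus strand, 5 exon blocks). It had 5.90, 9.75 and 5.35 CPM in clone 1, 1.92, 4.02 and 2.89 CPM in clone 2 and 3.64, 6.98 and 5.28 CPM in wild type. Replicate 2 was the highest library in each group. In clone 2 against wild type the log2 change was −0.84 (SE 0.34, edgeR adjusted p = 0.146) without a block. Blocked on replicate number it was −0.85 (SE 0.27, adjusted p = 0.0317) and passed the test. Clone 1 differed from wild type by 0.40 (SE 0.33, adjusted p = 0.507).

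The adaptors stayed closer to wild type. MYD88 (chr3:38138478-38143022, plus strand, 4 exon blocks), the adaptor shared by nearly all Toll-like receptors, had 30.2, 32.1 and 28.1 CPM in clone 1, 31.7, 37.0 and 35.7 CPM in clone 2 and 33.7, 34.4 and 38 CPM in wild type. The clone 1 libraries lay below all wild-type libraries by a log2 difference of −0.23 (SE 0.14) that did not pass the test (edgeR adjusted p = 0.348). Clone 2 overlapped with wild type (−0.02, SE 0.14, adjusted p = 0.944).

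TIRAP (chr11:126283065-126298845, plus strand, 9 exon blocks), which recruits MyD88 to TLR2 and TLR4, averaged 3.93 ± 0.977 CPM in clone 1, 3.66 ± 0.922 CPM in clone 2 and 4.31 ± 0.313 CPM in wild type (SD, n = 3 each). All groups overlapped, and neither clone passed the test against wild type (edgeR adjusted p = 0.830 in clone 1 and 0.687 in clone 2). It shares 12.5% and 10.0% of its exon bases with RP11-712L6.7 and RP11-712L6.5 on the opposite strand, which had at most 1 and 21 counts in a library. The sources used here do not say whether the counting used strand, so reads of such pairs cannot be told apart.

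TICAM1 (chr19:4815932-4831704, minus strand, 2 exon blocks), which encodes TRIF, had 10.4, 14.0 and 11.9 CPM in clone 1, 15.3, 19.9 and 25.5 CPM in clone 2 and 13.8, 17.8 and 15.7 CPM in wild type. Wild type averaged between the clones and overlapped with each. The log2 changes of −0.38 in clone 1 (SE 0.20, edgeR adjusted p = 0.292) and 0.36 in clone 2 (SE 0.20, adjusted p = 0.291) did not pass the test.

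IRAK1, the kinase that MyD88 brings to the receptor complex, was the most abundant of the 10 genes and the one that passed the test in clone 1 against wild type. IRAK1 (chrX:154010500-154019980, minus strand, 13 exon blocks) had 377.7, 379.7 and 365.1 CPM in clone 1, 307.4, 280.8 and 311.5 CPM in clone 2 and 236.5, 232.5 and 281.3 CPM in wild type. All clone 1 libraries lay above all others, and 1 clone 2 library lay just below the highest wild-type library.

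IRAK1 rose in clone 1 by 0.58 on the log2 scale (SE 0.14, edgeR adjusted p = 0.0281). That call ended without any one of the 3 clone 1 libraries and without wild-type replicate 1 or 2 (adjusted p up to 0.105; the range over 16 alternatives was 0.000154 to 0.105), with log2 changes of 0.53 to 0.69 throughout. In clone 2 the difference of 0.26 (SE 0.14) did not pass the test (adjusted p = 0.274).

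TRAF6 (chr11:36487027-36510272, minus strand, 9 exon blocks), the ubiquitin ligase downstream of IRAK1, averaged 18.6 ± 1.31 CPM in clone 1, 18.4 ± 2.34 CPM in clone 2 and 16.0 ± 2.60 CPM in wild type (SD, n = 3 each). Both clones overlapped with wild type, at log2 0.22 (SE 0.17, edgeR adjusted p = 0.488) in clone 1 and 0.20 (SE 0.17, adjusted p = 0.516) in clone 2.

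Counted over the 9 genes other than TLR4, 1 passed the test in clone 1 against wild type (IRAK1, higher), beside 5.51% of all tested genes (1.41% higher and 4.1% lower). In clone 2 against wild type 1 passed (CD14, lower), beside 5.96% of all tested genes (3.21% higher and 2.75% lower), and 2 did with the replicate block (CD14 and TLR3, both lower), beside 16% of all tested genes in the blocked fit (9.03% higher and 6.92% lower). With upper-quartile factors the shares over all genes were 1.74% higher and 2.80% lower in clone 1, and 1.90% higher and 3.43% lower in clone 2. A count of 1 among 9 genes is near the background. The median log2 change of the 9 was 0.22 in clone 1 and −0.23 in clone 2, against −0.02 and 0.00112 over all tested genes. Both comparisons use the same 3 wild-type libraries, so they are not independent of each other.

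**Figure D3:**
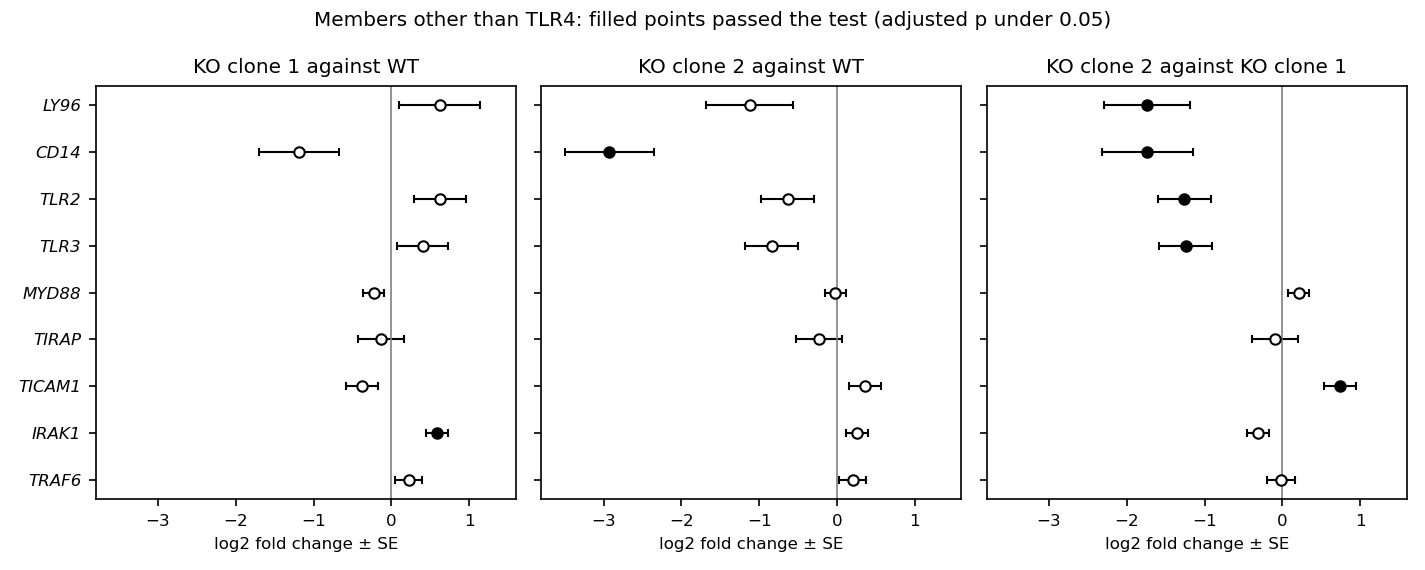
Log2 fold change ± SE of the 9 genes other than TLR4 in each comparison from the fit across all genes (left to right: clone 1 against wild type, clone 2 against wild type, clone 2 against clone 1). Filled points passed the test at an adjusted p under 0.05: IRAK1 in clone 1, CD14 in clone 2, and LY96, CD14, TLR2, TLR3 and TICAM1 between the clones.

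Over all tested genes 33.9% passed the test between the clones, against 5.51% in clone 1 and 5.96% in clone 2 against wild type. The 9 genes other than TLR4 shared this general rise. In clone 2 against clone 1, 5 of the 9 genes passed, beside 33.9% of all tested genes. LY96, CD14, TLR2 and TLR3 were lower in clone 2 (4 of 9, beside 14.1% of all tested genes) and TICAM1 was higher (1 of 9, beside 19.8%). The libraries of the clones did not overlap for any of these 5. The split over all genes depends on the scaling: with upper-quartile factors 13.9% of tested genes were higher and 19.8% lower in clone 2, and the median gene moved by −0.16 on the log2 scale.

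LY96 averaged 0.658 ± 0.286 CPM in clone 2 and 2.20 ± 0.881 CPM in clone 1, and fell by 1.74 on the log2 scale (SE 0.55, edgeR adjusted p = 0.0237). CD14 averaged 0.318 ± 0.126 CPM in clone 2 and 1.09 ± 0.227 CPM in clone 1, and fell by 1.74 (SE 0.58, adjusted p = 0.0312). These are the 2 genes of the lipopolysaccharide co-receptors, and both rest on low counts, 7 to 16 and 3 to 9 per library in clone 2. The LY96 call ended without clone 1 replicate 1 or 3 or clone 2 replicate 3 (range over 16 alternatives 0.00681 to 0.0907). The CD14 call ended without clone 1 replicate 2 or 3 or clone 2 replicate 1 or 3, and with limma-voom (range 0.0137 to 0.0984).

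TLR2 averaged 1.88 ± 0.186 CPM in clone 2 and 4.49 ± 1.09 CPM in clone 1, and fell by 1.26 on the log2 scale (SE 0.34, edgeR adjusted p = 0.0102). TLR3 averaged 2.94 ± 1.05 CPM in clone 2 and 7.0 ± 2.40 CPM in clone 1, and fell by 1.24 (SE 0.34, adjusted p = 0.0111). Both calls ended without clone 1 replicate 2, the highest library for each gene (range over 16 alternatives 0.00144 to 0.050 for TLR2 and 0.000548 to 0.0704 for TLR3).

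TICAM1 averaged 20.2 ± 5.11 CPM in clone 2 and 12.1 ± 1.79 CPM in clone 1, and rose by 0.74 on the log2 scale (SE 0.20, edgeR adjusted p = 0.0114). That call ended without clone 2 replicate 3, its highest library (range over 16 alternatives 0.00156 to 0.0987). IRAK1 averaged 299.9 ± 16.7 CPM in clone 2 and 374 ± 7.95 CPM in clone 1 with no overlap, but its log2 difference of −0.32 (SE 0.14) did not pass the test (adjusted p = 0.0942). It passed with upper-quartile factors or DESeq2 (range over 16 alternatives 0.0125 to 0.191). MYD88 (0.21, SE 0.14, adjusted p = 0.261), TIRAP (−0.09, SE 0.30, adjusted p = 0.832) and TRAF6 (−0.02, SE 0.17, adjusted p = 0.944) did not pass.

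A further 101 genes of the pathway were read from 8 lists drawn up from general knowledge, and 80 of them had enough counts to be tested. Of the rest, 5 had no count in any library: CD180 and LY86, a receptor and its partner related to TLR4 and MD-2, the cytokines TNF and IFNB1, and the cytosolic sensor CASP5. LBP had 1 count over all libraries. TICAM2, which encodes TRAM, the adaptor between TLR4 and TRIF, had 1, 1 and 6 counts summed over clone 1, clone 2 and wild type.

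In clone 1 against wild type 7 of the 80 genes passed the test, 1 higher and 6 lower, beside 5.51% of all tested genes, and the median log2 change was −0.23. Among 3 tested Toll-like receptors TLR6, which pairs with TLR2, rose to 35.5 ± 3.68 CPM in clone 1, against 21.2 ± 1.98 CPM in wild type (log2 0.74, SE 0.15, edgeR adjusted p = 0.0102). TLR6 and TLR1 are near-identical in part, so the split of reads between them is uncertain. By edgeR 0 of 7 genes of delivery and trafficking passed (2 at an unadjusted p under 0.05, 0 with DESeq2 or limma-voom), as did 0 of 11 negative regulators (3 unadjusted, 1 with DESeq2, 0 with limma-voom).

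SYK, a tyrosine kinase used by immune receptors, was the 1 of 19 tested signalling genes that was called in clone 1. Like TLR4 it cleared the filter in every library of wild type alone, so its level is a description, and 6 of the 7 calls rest on other genes. It had 0, 0 and 0 counts in clone 1, against 23, 60 and 71 counts in wild type. It was thus at least 46.7-fold lower in clone 1, taking 3 counts over the group as the floor. Of 11 transcription factors and inhibitors 2 fell, both subunits of NF-kappaB, beside 4.1% of all tested genes. NFKB1 averaged 22.3 ± 2.00 CPM in clone 1 and 39.0 ± 6.24 CPM in wild type (log2 −0.80, SE 0.17, edgeR adjusted p = 0.0150). RELA averaged 54.4 ± 2.80 CPM in clone 1 and 79.5 ± 6.36 CPM in wild type (log2 −0.55, SE 0.14, adjusted p = 0.0300).

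Of 16 tested transcripts known to be induced by lipopolysaccharide, 1 fell in clone 1, beside 4.1% of all tested genes. This was ICAM1, an adhesion molecule for leukocytes, with 0.259, 0.523 and 0.613 CPM in clone 1 and 3.59, 7.24 and 3.72 CPM in wild type (log2 −3.37, SE 0.52, edgeR adjusted p = 0.00153). GBP1, which coats lipopolysaccharide of bacteria in the cytosol, fell by 0.68 (SE 0.17, adjusted p = 0.0319), 1 of 6 in the cytosolic list. FN1, whose extra domain A has been reported as a TLR4 ligand, fell by 1.56 (SE 0.29, adjusted p = 0.00796), 1 of 7 endogenous ligands. Of the 16 lipopolysaccharide-induced transcripts 7 had an unadjusted p under 0.05 by edgeR, and DESeq2 called 3 and limma-voom 2. With the replicate block 5 of the 16 fell (CSF2, ICAM1, IL1B, SOD2 and TNFAIP2) and 0 rose. In that fit 9.28% of all tested genes were lower and 4.44% higher. The clone 1 libraries were not read as pairs with wild type.

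ICAM1 passed without each single library in turn. TLR6 and FN1 did not pass without clone 1 replicate 3 (adjusted p = 0.0818 and 0.0528, the highest of 16 alternatives for each, with lowest values of 0.000154 and 3.21e-15). NFKB1 did not pass without clone 1 replicate 2 or 3 or wild-type replicate 2 or 3, and RELA did not pass without these or clone 1 replicate 1. GBP1 did not pass without clone 1 replicate 1 or 3 or wild-type replicate 2 or 3, or with upper-quartile factors (adjusted p = 0.0581; range 0.00170 to 0.169).

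In clone 2 against wild type 6 of the 80 genes passed, 2 higher and 4 lower, beside 5.96% of all tested genes, with a median log2 change of −0.10. With the replicate block 18 passed, 8 higher and 10 lower, beside 16% of all tested genes in that fit. Without the block edgeR called 0 of 3 Toll-like receptors, 0 of 7 delivery genes, 0 of 11 transcription factors and inhibitors and 0 of 7 endogenous ligands (0, 0, 2 and 1 at an unadjusted p under 0.05), and DESeq2 and limma-voom called 0 in each. With it the counts in these 4 lists were 0, 0, 1 and 2: NFKBIB, an inhibitor of NF-kappaB, was higher by 0.53 (SE 0.15, adjusted p = 0.0175), FN1 lower (log2 −0.57, SE 0.16, adjusted p = 0.0183) and TNC, the matrix protein tenascin C, higher by 0.42 (SE 0.14, adjusted p = 0.0497). TRAF3, a ubiquitin ligase of the TRIF branch, rose by 0.59 (SE 0.14, edgeR adjusted p = 0.0267), 1 of 19 signalling genes. DUSP1, a phosphatase that turns off MAP kinases, averaged 20.0 ± 4.37 CPM in clone 2 and 10.1 ± 1.83 CPM in wild type (log2 0.98, SE 0.22, adjusted p = 0.0171), 1 of 11 negative regulators. These values of TRAF3 and DUSP1 are from the fit without the block. With the block 2 of the 19 signalling genes passed, TRAF3 and PELI2, both higher. Of the 11 negative regulators 4 passed with it: DUSP1, CYLD and TNIP1 higher and ZC3H12A lower. In that fit 9.03% of all tested genes were higher and 6.92% lower.

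Of the 16 tested lipopolysaccharide-induced transcripts 3 fell in clone 2, beside 2.75% of all tested genes, and 0 rose, beside 3.21%. The cytokine IL1B had 1.98, 1.02 and 0.617 CPM in clone 2 and 4.18, 6.09 and 3.37 CPM in wild type (log2 −1.94, SE 0.43, edgeR adjusted p = 0.0166). ICAM1 averaged 1.5 ± 0.834 CPM in clone 2 and 4.85 ± 2.07 CPM in wild type (log2 −1.68, SE 0.46, adjusted p = 0.0434), and NFKBIZ, a nuclear inhibitor-like regulator of NF-kappaB, fell by 0.95 (SE 0.22, adjusted p = 0.0207). With the replicate block 6 of the 16 fell and 1 rose, beside 6.92% lower and 9.03% higher of all tested genes in that fit. The cytokine IL6 (log2 −1.31, SE 0.37, adjusted p = 0.0159), the chemokine CXCL1 (−1.05, SE 0.33, adjusted p = 0.0299) and TNFAIP2 (−0.55, SE 0.15, adjusted p = 0.0124) joined the lower ones, and SOD2 was higher (0.60, SE 0.15, adjusted p = 0.0110). CASP4, a caspase that binds lipopolysaccharide in the cytosol, averaged 12.6 ± 1.69 CPM in clone 2 and 21.7 ± 1.79 CPM in wild type. Without the block it was 1 of 6 called in its list (log2 −0.78, SE 0.18, edgeR adjusted p = 0.0183). With the block 2 of the 6 passed, both lower, CASP4 and GBP1 (GBP1 log2 −0.48, SE 0.14, adjusted p = 0.0203).

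All 6 calls of the fit without the block ended without clone 2 replicate 3, and all 6 ended without wild-type replicate 2, so edgeR called 0 of the 80 genes in either fit (15 and 14 at an unadjusted p under 0.05). ICAM1 and TRAF3 also did not pass without clone 1 replicate 2, clone 2 replicate 2 or wild-type replicate 1, or in a fit of the 6 libraries compared. ICAM1 further did not pass without clone 1 replicate 3 or clone 2 replicate 1, and DUSP1 and NFKBIZ did not pass without wild-type replicate 1.

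**Figure D4:**
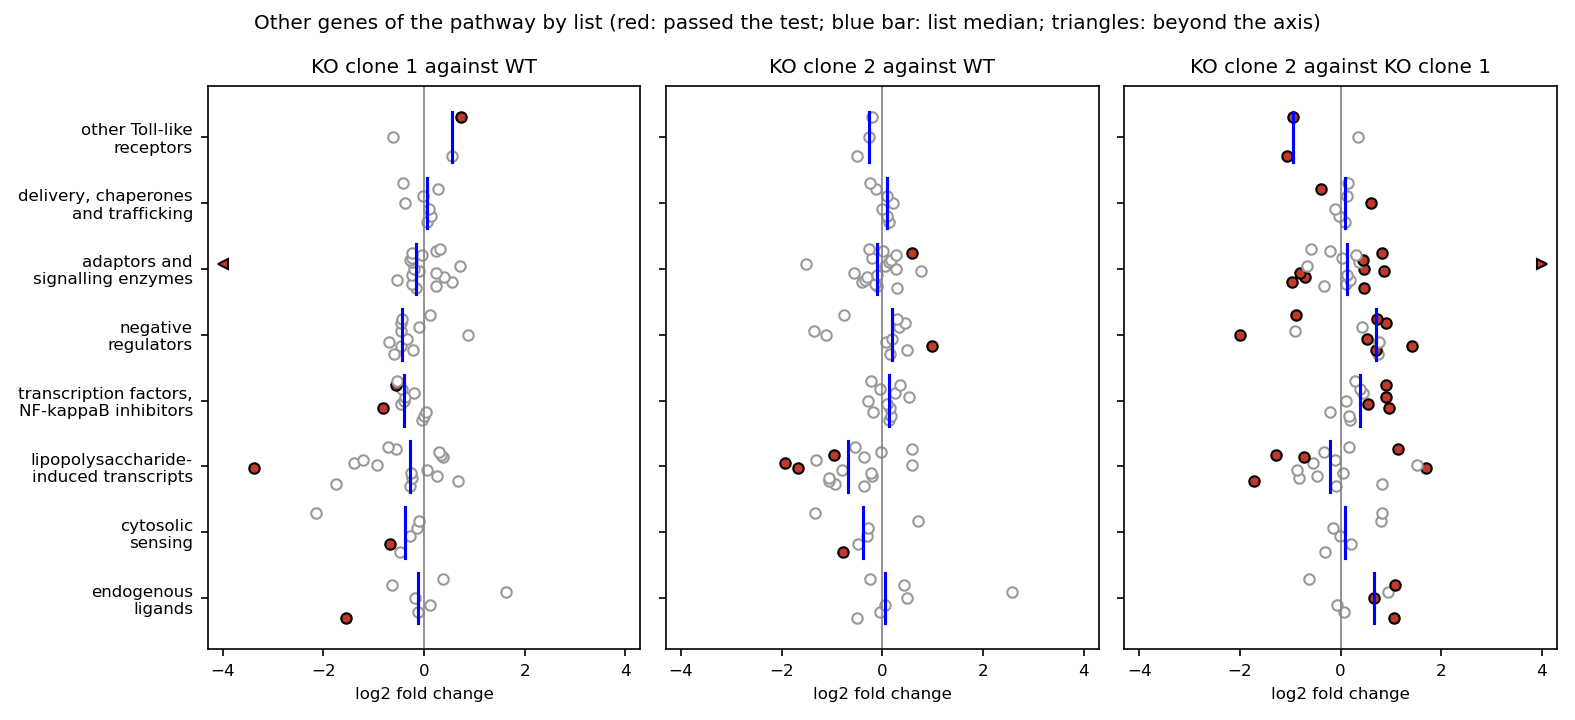
Log2 fold change of the 80 tested pathway genes by list (rows) in each comparison (left to right: clone 1 against wild type, clone 2 against wild type, clone 2 against clone 1). Red points passed the test, blue bars are list medians, and triangles are SYK, beyond the axis because clone 1 had 0 counts. Between the clones 32 genes passed, against 7 and 6 in the comparisons with wild type, beside 33.9%, 5.51% and 5.96% of all tested genes.

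Between the clones 32 of the 80 genes passed, 21 higher and 11 lower in clone 2, beside 33.9% of all tested genes, and the median log2 difference was 0.16. This share is near the background. Of the transcription factors and inhibitors 4 of 11 were higher in clone 2 and 0 lower, beside 19.8% and 14.1% of all tested genes. Among the higher ones were RELA, with 101.6 ± 13.0 CPM in clone 2 and 54.4 ± 2.80 CPM in clone 1 (log2 0.90, SE 0.14, edgeR adjusted p = 0.000235), and NFKB1 (0.96, SE 0.17, adjusted p = 0.000776). Both passed under all 16 alternatives.

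Of the negative regulators 5 of 11 were higher and 2 lower in clone 2, beside 19.8% and 14.1% of all tested genes. Upper-quartile factors turned round the split over all tested genes. TOLLIP, an adaptor that restrains IRAK1, averaged 69.3 ± 2.75 CPM in clone 2 and 41.9 ± 1.85 CPM in clone 1 (log2 0.73, SE 0.13, edgeR adjusted p = 0.000692). SIGIRR, a receptor that dampens Toll-like receptor signals, averaged 1.29 ± 0.723 CPM in clone 2 and 5.08 ± 1.21 CPM in clone 1 (log2 −1.99, SE 0.42, adjusted p = 0.00222). Of the 19 signalling genes 6 were higher and 3 lower, beside the same shares, the lower ones including IRAK4, the kinase that acts before IRAK1 (log2 −0.70, SE 0.14, adjusted p = 0.00153). These 3 genes passed under all 16 alternatives.

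TLR6 (log2 −0.95, SE 0.15, edgeR adjusted p = 0.000309) and TLR1 (−1.05, SE 0.30, adjusted p = 0.0138) were both lower in clone 2 than in clone 1, as were TLR2 and TLR3, while TLR5 did not pass the test. TLR1 did not pass without clone 1 replicate 3 (adjusted p = 0.108; range over 16 alternatives 0.00265 to 0.108). Of the 16 tested lipopolysaccharide-induced transcripts 2 were higher and 3 lower in clone 2, beside 19.8% and 14.1% of all tested genes. SOD2, the mitochondrial superoxide dismutase, was higher by 1.15 (SE 0.18, adjusted p = 0.000251), and NFKBIZ was lower by a log2 difference of −1.29 (SE 0.22, adjusted p = 0.000524).

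The genes around TLR4 were read next. Of 40 genes that start within 3 Mb of its start, 8 had enough counts to be tested. By edgeR without the replicate block 0 of them passed against wild type in either clone. At an unadjusted p under 0.05 there were 2 in clone 1 and 0 in clone 2, and DESeq2 and limma-voom called 0 in both. With the replicate block TNC, 2.68 Mb upstream, passed in clone 2 against wild type (log2 0.42, adjusted p = 0.0497), beside 16% of all tested genes in that fit. With the same block TNC was lower in clone 1 than in wild type (log2 −0.61, edgeR adjusted p = 0.00593), beside 13.7% of all tested genes. The clone 1 libraries were not read as pairs with wild type. Between the clones 2 of the 8 passed, beside 33.9% of all tested genes (19.8% higher). These were TNC (1.07, edgeR adjusted p = 0.00553) and TRIM32 (0.52, adjusted p = 0.0152), both higher in clone 2. The nearest, TPT1P9, a pseudogene 0.379 Mb downstream whose reads may belong to near-identical copies, differed by 1.10 in clone 1 (adjusted p = 0.316) and 0.61 in clone 2 (adjusted p = 0.598) on the log2 scale. TRIM32, a ubiquitin ligase gene 1.02 Mb upstream, averaged 17.4 ± 1.11 CPM in clone 1, 25.0 ± 1.45 CPM in clone 2 and 22.6 ± 2.34 CPM in wild type. Its log2 differences from wild type were −0.38 in clone 1 (edgeR adjusted p = 0.155) and 0.14 in clone 2 (adjusted p = 0.603).

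**Figure D5:**
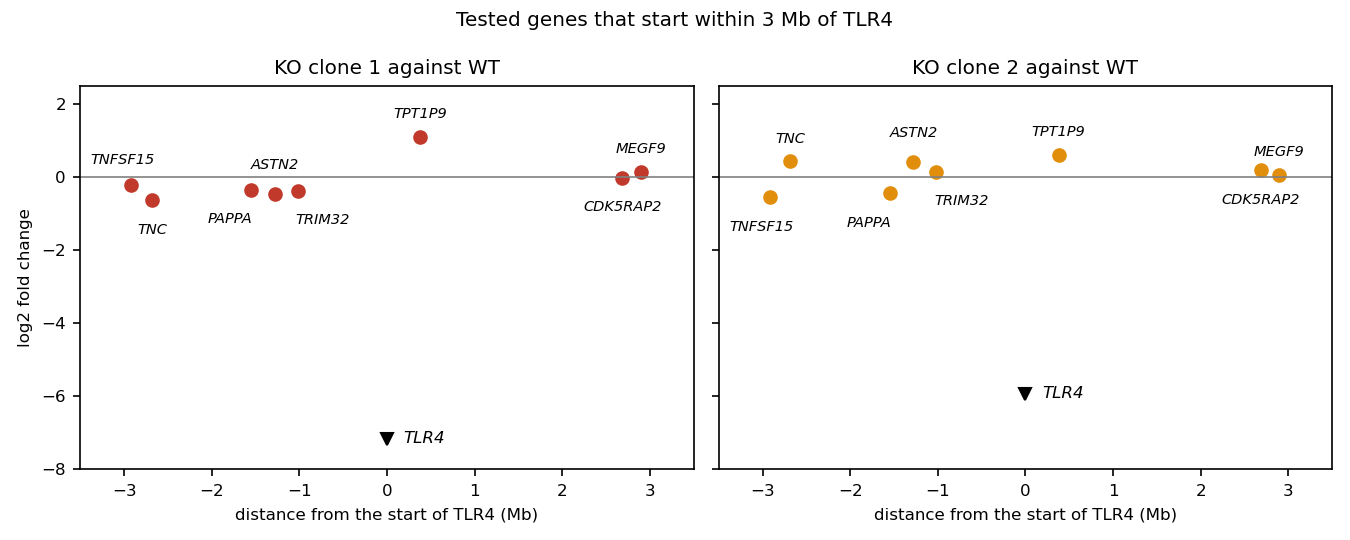
Log2 fold change of the 8 tested genes that start within 3 Mb of TLR4 (circles) against their distance from its start in Mb, in clone 1 against wild type (left) and clone 2 against wild type (right). Triangles show TLR4 at the log2 of its ratio of summed counts, −7.17 in clone 1 and −5.93 in clone 2, while its neighbours lie between −0.64 and 1.10 in clone 1 and between −0.55 and 0.61 in clone 2.

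The protein-coding genes whose levels followed TLR4 most closely were named by Pearson's r of log2(CPM + 1) over the 9 libraries. Of the 15153 genes compared only protein-coding ones were named, so genes of other types may have a higher r. The 9 points fall into 3 groups and share their depth, so r here describes the same split between clones and wild type. PKIA, which encodes an inhibitor of protein kinase A, was the nearest protein-coding gene (r = 0.996), with 2 counts in clone 1, 2 counts in clone 2 and 1042 counts in wild type. It was followed by NRXN3, a neuronal adhesion molecule (r = 0.995), with 0 counts in each clone and 143 in wild type, and FSTL5 (r = 0.995), with 0 counts in each clone and 289 in wild type.

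ARHGAP15, a Rac GTPase-activating protein, had 0 counts in each clone and 292 in wild type (r = 0.991). Taking 3 counts over the group as the floor, NRXN3, FSTL5 and ARHGAP15 were at least 43.3-fold, 87.6-fold and 88.5-fold lower in clone 1, and at least 43.0-fold, 87.0-fold and 87.9-fold lower in clone 2. TSTD1 (r = 0.987) had 6 counts in clone 1, 0 in clone 2 and 205 in wild type. SPARC, a matricellular glycoprotein (r = 0.987), kept 288 counts in clone 1 and 226 in clone 2, against 6088 in wild type. MAGEA6 (r = 0.986), which has near-identical copies among which reads may be split, had 2, 0 and 535 counts in clone 1, clone 2 and wild type. POU3F2, a transcription factor (r = 0.982), had 12 counts in clone 1, 26 in clone 2 and 380 in wild type.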

How the data were processed

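RNA sequencing gave 9 libraries of MDA231-LN cells. Raw counts per gene were deposited by the authors in 2 tables, with the same wild-type libraries in both (identical in 3 of 3 columns). The submitters' processing notes name STAR, Subread, featureCounts and DESeq2 and the build GRCh38. The sources used here give no version, annotation or strand setting. Coordinates are those of the file headers.

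The deposited counts were tested with edgeR 4.0.16 (R 4.3.3): TMM scaling, filterByExpr with a minimum count of 10, 1 robust quasi-likelihood model over the 3 groups (6 residual degrees of freedom) and Benjamini-Hochberg adjustment over 16921 genes, called under 0.05. The biological coefficient of variation was 20.3%. No pair of replicates came near sampling noise (chi-square per gene 17.4 to 61.9). CPM and RPKM were computed from TMM-scaled totals and the exon lengths in the file headers. Alternatives were RLE and upper-quartile factors, no filter, DESeq2 1.42.0, limma-voom 3.58.1, a fit of 6 libraries, a replicate block and each library left out. The script was tested on simulated data.

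The shared replicate numbers were checked by the correlation of same-numbered libraries' deviations from their group means. They were 0.223, 0.269 and 0.246 for clone 2 and wild type, all over 0.1, so these were read as pairs. They were 0.245, 0.0825 and -0.0965 for clone 1 and wild type, and 0.219, -0.0215 and 0.0124 for the clones, which were not. In these comparisons libraries of unlike number reached 0.215 and 0.202. The replicate block was nevertheless fitted over all 9 libraries, clone 1 included, so the blocked results for clone 2 also use replicate numbers of clone 1.

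The genes and lists were chosen with earlier results of these data known. From each list the called genes were named, at most 4 per list and comparison with the smallest adjusted p, and the text describes part of those between the clones. The 8 protein-coding genes with the highest r to TLR4 among genes of at least 1 CPM in a group, and tested genes within 3 Mb, were named as well.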

Additional observations from a re-analysis of the deposited data

Results flagged for a closer look

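Each of these genes differed between the clones in its change against the shared wild-type libraries, by the edgeR test of clone 2 against clone 1. Of all 16921 tested genes 5733 (33.9%) passed the same test, and of the pathway genes 32 of 80, which is near that share. At most 4 called genes per list are given, so some called genes are left out. Values are log2 differences, clone 2 minus clone 1.

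Among the 10 genes the difference was -1.74 for LY96, -1.74 for CD14, -1.26 for TLR2, -1.24 for TLR3 and 0.74 for TICAM1. Among further receptors it was -1.05 for TLR1 and -0.95 for TLR6. In trafficking it was 0.60 for RAB10 and -0.39 for TMED7.

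Among signalling genes it was -0.96 for IKBKG, the NF-kappaB kinase's regulatory subunit, whose near-identical pseudogene makes its counts uncertain, -0.70 for IRAK4 and 0.83 for TRAF3. SYK had 46 counts in clone 2 and 0 in clone 1, so it was at least 15.4-fold higher in clone 2; its fitted value of 7.07 depends on the prior count, and it cleared the filter in every library of wild type alone.

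Negative regulators differed by 0.73 (TOLLIP), 0.91 (TNIP1), 1.43 (DUSP1) and -1.99 (SIGIRR). Transcription factors and inhibitors differed by 0.96 (NFKB1), 0.55 (NFKB2), 0.90 (RELA) and 0.89 (NFKBIB). 

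Among lipopolysaccharide-induced transcripts the difference was 1.70 for ICAM1, -1.29 for NFKBIZ, -0.73 for LIF and 1.15 for SOD2. Among endogenous ligands it was 1.05 for FN1, 1.07 for TNC and 0.66 for HSPD1. Mitochondrially encoded genes took 0.95% to 1.94% of counts in clone 2 and 2.48% to 5.30% in clone 1, with no overlap; the part of this difference in the values above was not tested.

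Some of these calls ended when 1 library was left out. NFKB2 passed in 6 of 16 alternatives and ended without any clone 1 library, clone 2 replicate 2 or 3 or wild-type replicate 3, and with RLE or upper-quartile factors, DESeq2 or limma-voom. TMED7 passed in 9 of 16 and ended without any clone 1 library, clone 2 replicate 2 or 3 or wild-type replicate 1, and without the filter. HSPD1 passed in 11 of 16 and ended without clone 1 replicate 2 or 3 or clone 2 replicate 1 or 3, and with upper-quartile factors. ICAM1 passed in 11 of 16 and ended without clone 1 replicate 1 or 2 or clone 2 replicate 3, with limma-voom and in the fit of 6 libraries. FN1 ended without clone 1 replicate 2.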

How the results depend on the processing

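Leaving out each library in turn gave 200 to 1301 called genes in clone 1 against wild type (933 in the full fit), 237 to 1584 in clone 2 against wild type (1008) and 3639 to 5782 between the clones (5733). Of the 9 genes beside TLR4 it left 0 to 1, 0 to 1 and 2 to 5 called, and of the 80 pathway genes 2 to 10, 0 to 11 and 21 to 33. Without the filter the counts were 1512 genes and 12 pathway genes in clone 1 and 1663 and 16 in clone 2. DESeq2 called 1479 genes in clone 1, and 1818 genes and 10 pathway genes in clone 2. The fit of 6 libraries called 416 genes in clone 2. The replicate block called 2322 genes and 16 pathway genes in clone 1, and 2699 genes, 2 of the 9 genes and 18 pathway genes in clone 2. The causes were not tested.

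Upper-quartile factors changed the split of calls, with 294 of 768 higher in clone 1 (239 of 933 with TMM), 322 of 903 in clone 2 (543 of 1008) and 2356 of 5711 between the clones (3353 of 5733). Log2 values near 0 changed sign when 1 library was left out: TIRAP ran from -0.313 to 0.0389 in clone 1 against wild type and from -0.265 to 0.0924 between the clones (0.0861 without clone 1 replicate 3), MYD88 from -0.0837 to 0.0603 in clone 2 against wild type, and TRAF6 from -0.122 to 0.0746 between the clones. For TLR4 the mean stayed within 0 to 0.0777 CPM in clone 1, 0.0712 to 0.195 in clone 2 and 6.98 to 7.78 in wild type under the scalings and libraries left out, which were added after the data were seen. Depth limits LY96 and CD14, with 3 to 99 counts per library. Of 1054 values of single genes under the alternatives, 956 kept their direction and, where tested, their call. These values include TLR4, which had no test, and genes that were not called in the full fit. Fewer calls held in every fit with 1 library left out. For the genes beside TLR4 these were 0 of 1 in clone 1 against wild type, 0 of 1 in clone 2 against wild type and 0 of 5 between the clones. For the named pathway genes they were 2 of 7, 0 of 6 and 17 of 23, in the same order. The 2 in clone 1 were ICAM1 and SYK, and SYK is also among the 17. SYK cleared the filter in every library of wild type alone, so its calls are no sign of stability.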
